A study of Homo sapiens with 18 samples.

Results

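Expression of 9 genes that bear on the response to PARP inhibitors was described with and without knockdown of OFD1, which encodes a centrosomal protein, in 3 established human lines from pancreatic tumours (PATU8988T, PANC1 and MIA PaCa-2). The genes were taken by symbol from the deposited expression table, and all 9 (PARP1, PARP2, PARP3, PARG, TP53BP1, RIF1, MAD2L2, SLFN11 and POLQ) were found among its 26668 genes. The rule is a list of symbols with no threshold on any value, although results of these data were known when it was written. Each line had 3 control and 3 knockdown libraries, 18 in all.

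The knockdown libraries carry a Tet-on shRNA against OFD1, switched on with doxycycline for 72 h. The labels of the controls name a control shRNA (shControl), a WT genotype and no treatment, whereas the methods of the study describe the same Tet-on-shOFD1 cells given DMSO. Which of these holds was not settled here, and doxycycline itself cannot be told apart from the shRNA because no control received it. The source labels of replicates 2 and 3 of PATU8988T name other lines, and the titles were followed. The labels do not say that replicates came from separate cultures, so the p-values measure the spread between libraries.

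PARP1 and PARP2 are enzymes that bind broken DNA and attach chains of ADP-ribose, and PARG removes these chains. PARP inhibitors block this step and hold PARP1 and PARP2 on DNA, which cells without homologous recombination tolerate poorly. TP53BP1, RIF1, MAD2L2 and the other shieldin proteins keep broken ends from being resected. Their loss in BRCA1-deficient cells is a known route to PARP inhibitor resistance, as is low SLFN11, a protein that arrests stressed replication forks. POLQ, DNA polymerase theta, joins ends through short homologies and is needed by cells that lack homologous recombination.

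Values were deposited as FPKM, which divides read counts by gene length and by library total. The libraries rested on between 32486479 and 39797537 counted reads. In each line, genes with a mean of at least 1 FPKM were kept, log2(FPKM + 0.1) was tested with limma, and a call needed an adjusted p below 0.05 (Benjamini-Hochberg over all genes kept). Fold changes below are on this log2 scale, knockdown over control. SLFN11 was under the filter in every line, and the other 8 genes were tested in all 3. OFD1 itself fell in each line on the log2 scale, with values of -1.07 for PANC1, -1.10 for PATU8988T and -0.61 for MIA PaCa-2 (adjusted p = 2.70e-06, 5.47e-05 and 0.0232, limma). MIA PaCa-2 control replicate 2 stood apart from the other 2 controls in a way that followed the GC content of transcripts. The change of each of the 8 genes and the list counts in MIA PaCa-2 are given with and without it. Without it, the OFD1 value in MIA PaCa-2 was -0.76 (adjusted p = 8.70e-05, limma). The epithelial keratins KRT8 and KRT18 were at 316 FPKM or above in every library. Other epithelial markers were low in some lines. EPCAM was at most 0.0991 FPKM and CDH1 at most 0.0321 FPKM in MIA PaCa-2. In PATU8988T, KRT19 was at most 0.0194 FPKM and CDH1 at most 0.378 FPKM. KRT7 was at most 5.37 FPKM in every library. COL1A2, a fibroblast marker, was at 152 to 205 FPKM in MIA PaCa-2, and CD68, a leukocyte marker, at 45.6 to 71.1 FPKM. DCN and LUM, also fibroblast markers, were at most 0.458 FPKM in every library, and the leukocyte marker CD3E was listed at 0.

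In PANC1, 4 of the 8 genes tested fell (RIF1, POLQ, PARP3 and MAD2L2) and 2 rose (PARG and TP53BP1). Over all 10902 genes tested in this line, 32.2% were called lower and 40.1% higher, 72.3% in all, so 6 of 8 is close to the share among genes at large. In MIA PaCa-2, PARP1 and PARP2 fell and TP53BP1 rose, 3 of 8, where 21.7% of 10758 genes were called lower, 18.7% higher and 40.4% in either direction. In PATU8988T, PARP3 and RIF1 fell and PARP1 and PARG rose, 4 of 8, where 18.5% of 10698 genes were called lower, 20.9% higher and 39.4% in either direction. The median change of the 8 genes was -0.08 for PANC1, -0.16 for MIA PaCa-2 and -0.0015 for PATU8988T, beside 0.06, -0.03 and 0.03 over all genes tested. The only one of the 8 genes past a 2-fold change as well was RIF1 in PANC1. There 6.6% of all genes were, against 7.75% for MIA PaCa-2 and 1% for PATU8988T. In PANC1, 5.66% of genes tested changed by more than RIF1, 11.2% than POLQ and 53.9% than PARP3. The shares were 64.3% for PARG, 76.9% for MAD2L2 and 80.2% for TP53BP1. In MIA PaCa-2 they were 50.3% for TP53BP1, 56.0% for PARP2 and 66.5% for PARP1. In PATU8988T they were 3.49% for PARP3, 27.3% for RIF1, 33.6% for PARG and 52.7% for PARP1. With all libraries, no one of the 8 genes was called in the same direction in all 3 lines. The share of all genes called so was not counted, so this cannot be set against genes at large. Without MIA PaCa-2 control replicate 2, RIF1 was called lower in that line too (-0.52, adjusted p = 2.43e-05, limma), and so in all 3. That fit called 39.8% of all genes in the line lower and 75.3% in either direction. The PATU8988T call of RIF1 was lost in 8 of 15 alternatives. At this group size the smallest p of an exact two-sided permutation test of one gene is 0.1. Knockdown libraries lay wholly below the controls for 3637 of 10902 genes in PANC1 and wholly above for 4541. These numbers were 3367 and 3008 of 10758 in MIA PaCa-2 and 2566 and 2981 of 10698 in PATU8988T. A lack of overlap was therefore common among genes at large.

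**Figure D1:**
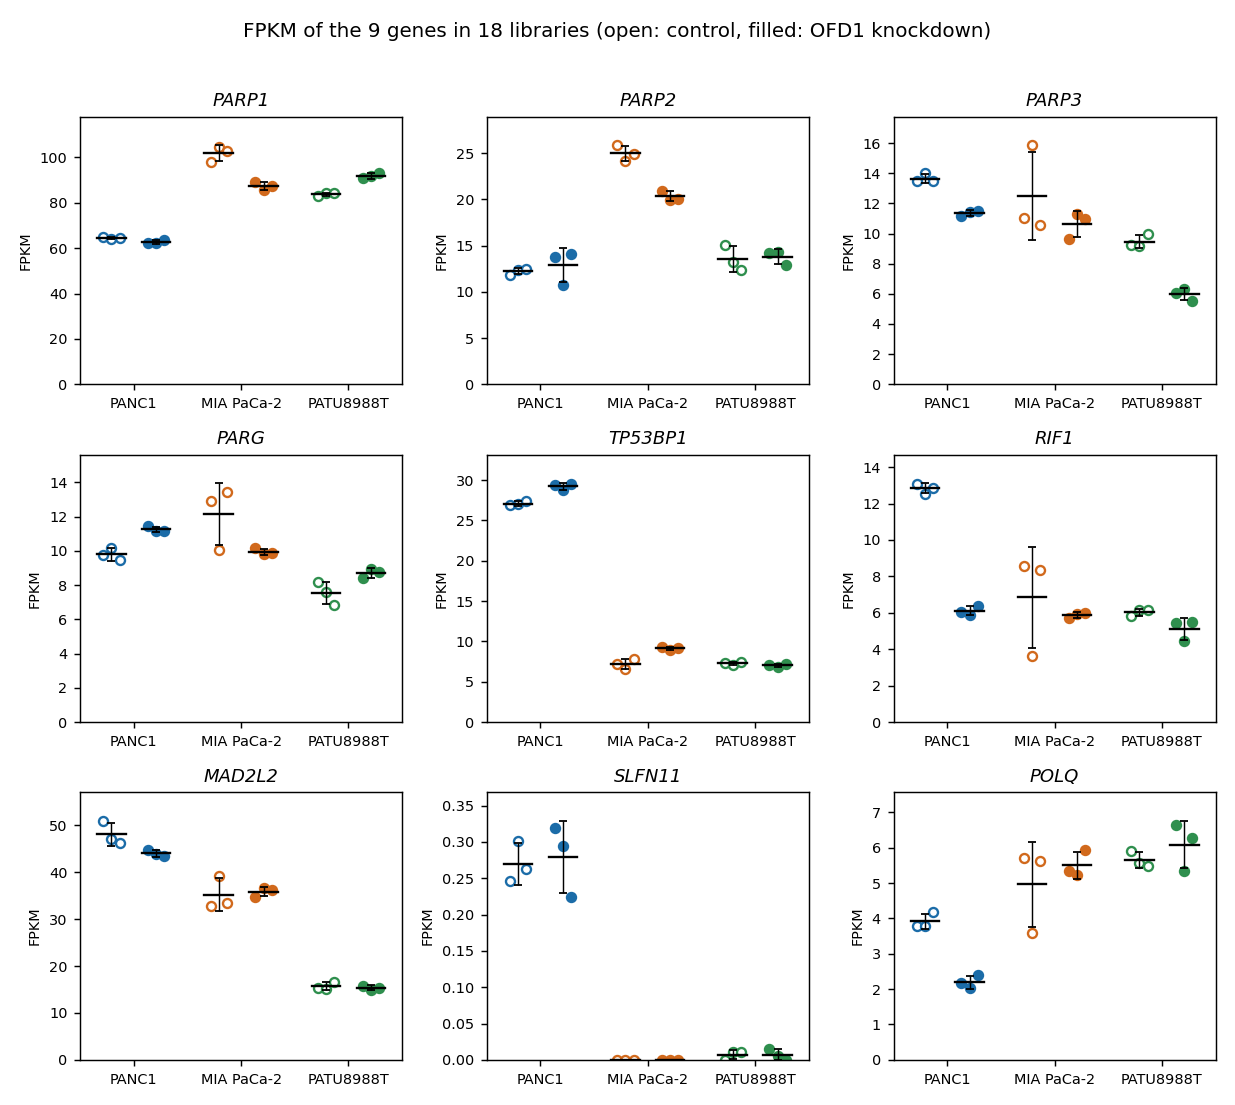
FPKM of the 9 genes (y axes, from 0) in each of the 18 libraries, with control libraries as open and OFD1 knockdown libraries as filled points, and the mean (line) and SD (bar) of 3 libraries. RIF1 and POLQ of PANC1 and PARP3 of PATU8988T are separated furthest, and control replicate 2 of MIA PaCa-2 lies low for RIF1 and POLQ and high for PARP3.

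**Figure D2:**
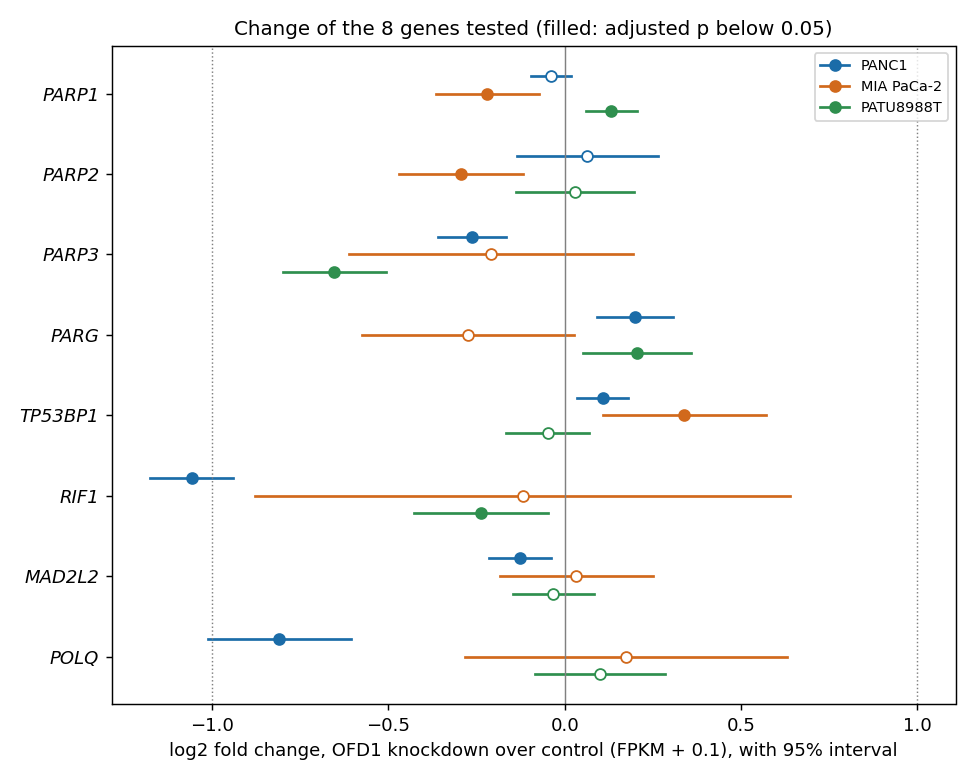
Log2 fold change of the 8 genes tested, knockdown over control, on the x axis, with the 95% interval from limma for each line. Filled points passed an adjusted p of 0.05 and dotted lines mark a 2-fold change. Only the point of RIF1 in PANC1 lies beyond it, with an interval that crosses it.

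RIF1, which acts with TP53BP1 to limit end resection and also sets replication timing, showed the largest change of the 8 genes in PANC1. The gene lies on the plus strand of chromosome 2 of GRCh38 from 151409883 to 151508013. PANC1 controls had 13.1, 12.5 and 12.9 FPKM of RIF1, and the knockdown libraries had 6.04, 5.89 and 6.40 FPKM. The groups did not overlap, and the gap between them was far wider than the spread within either. The means were 12.8 ± 0.281 and 6.11 ± 0.259 FPKM (SD, n = 3 each), and the log2 fold change was -1.06 (SE 0.0526, adjusted p = 5.23e-08, limma). It kept its direction and its call under all 15 alternatives, with values from -1.11 to -0.96.

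RIF1 was lower by less in the other lines. In PATU8988T, the controls had 5.80, 6.15 and 6.14 FPKM and the knockdown libraries 5.46, 4.43 and 5.47 FPKM. The libraries did not overlap, with replicate 2 the lowest, and the log2 fold change was -0.24 (SE 0.0847, adjusted p = 0.0492, limma). This call was lost in 8 of 15 alternatives, among them the fits without control replicate 1 (-0.27, adjusted p = 0.0765), control replicate 2 (-0.22, 0.132), control replicate 3 (-0.22, 0.125) and knockdown replicate 2 (-0.14, 0.0819).

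In MIA PaCa-2, RIF1 was at 8.56, 3.64 and 8.33 FPKM in the controls and at 5.69, 5.94 and 6.003 FPKM after knockdown. The second control was below all knockdown libraries and the other controls were above them. The log2 fold change was -0.12 (SE 0.318, adjusted p = 0.790, limma) with it and -0.52 (SE 0.0498, adjusted p = 2.43e-05) without it. The effect in PANC1 was larger than that in MIA PaCa-2 by -0.94 (adjusted p = 0.0197, interaction term in limma over all 18 libraries), and the difference was -0.54 (adjusted p = 0.000124) without that control. It passed in all 25 alternatives. From PATU8988T, PANC1 differed by -0.82 (adjusted p = 0.0449), which was past the threshold in 9 of 25 alternatives. This test shares its estimate of the spread with the MIA PaCa-2 libraries. Without MIA PaCa-2 control replicate 2, the difference was again -0.82 (adjusted p = 5.73e-07, limma).

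POLQ also fell in PANC1. It lies on the minus strand of chromosome 3 from 121431427 to 121546641. The controls had 3.78, 3.80 and 4.17 FPKM, and the knockdown libraries 2.17, 2.03 and 2.39 FPKM. All 3 knockdown libraries were below all 3 controls. The means were 3.92 ± 0.220 and 2.19 ± 0.181 FPKM (SD, n = 3 each), and the log2 fold change was -0.81 (SE 0.0907, adjusted p = 2.15e-05, limma), and the call held in all 14 alternatives that could test the gene, with values from -0.87 to -0.62.

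POLQ was not called in the other lines. PATU8988T had 5.92, 5.56 and 5.48 FPKM in the controls and 6.65, 5.34 and 6.27 FPKM after knockdown, with overlapping groups and a log2 fold change of 0.10 (95% interval -0.08 to 0.28, adjusted p = 0.361, limma). Without knockdown replicate 2, the lowest of that group, the value was 0.19 (adjusted p = 0.0367). MIA PaCa-2 had 5.70, 3.58 and 5.61 FPKM in the controls and 5.33, 5.23 and 5.94 FPKM after knockdown. The log2 fold change there was 0.17 (95% interval -0.28 to 0.63, adjusted p = 0.501), and -0.04 (95% interval -0.20 to 0.11, adjusted p = 0.590) without control replicate 2. The PANC1 effect differed from both, by -0.98 from MIA PaCa-2 (adjusted p = 0.000853) and by -0.91 from PATU8988T (adjusted p = 0.00184, interaction terms in limma), and both differences held in all 24 alternatives.

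Genes of the cell cycle fell beside RIF1 and POLQ in PANC1. Of 16 S phase genes (such as PCNA, the replication clamp, and RRM2, a subunit of ribonucleotide reductase), all 16 were called lower in PANC1, with a median of -1.04, and their summed level was 548 to 553 FPKM in the controls and 276 to 284 FPKM after knockdown. In MIA PaCa-2, 15 of 16 were called lower with or without control replicate 2, with a median of -0.84 with it and -0.67 without it. Over all libraries of that line, the sums were 1456 to 1609 against 876 to 886 FPKM, while POLQ was not called. In PATU8988T, 12 of 16 were called higher and 0 lower by limma (13 and 0 at an unadjusted p under 0.05, and 13 and 0 by voom on recovered reads), with a median of 0.17 and sums of 932 to 949 against 1063 to 1102 FPKM. G2 and mitosis genes were lower in 14 of 14 in PANC1 and 12 of 14 in MIA PaCa-2 (14 of 14 without that control), and 2 lower and 3 higher of 14 in PATU8988T. Their part in the RIF1 and POLQ results was not tested, and in bulk RNA fewer cells in a phase and less RNA per cell cannot be told apart. Across all genes tested, the change in PANC1 had a Spearman correlation of -0.10 with transcript GC content and of 0.0043 with gene length, over genes that are not independent.

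After the mean of each line was subtracted, the levels of RIF1 and POLQ had a Pearson r of 0.89 over the 18 libraries, and 0.86 without MIA PaCa-2 control replicate 2. These libraries share the line and the condition, so the value is a description. Among 9082 genes, the patterns most like that of RIF1 were those of AFF4, MAGT1 and SEL1L (r of 0.99, 0.99 and 0.98 over 18 libraries). Those most like POLQ were CTNNAL1, KNTC1 and ME1 (r of 0.97, 0.96 and 0.96).

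The promoters of these 2 genes and of PARP3, the gene of the 8 with the largest change in PATU8988T, are shown because the study concerns the DREAM repressor complex, whose known sites are E2F-like and CHR elements near start sites. Windows of 250 bases before to 50 bases after the RefSeq start site on GRCh38.p14 were searched on both strands for TTTGAA and TTCGAA (forms of the CHR) and for TTTNNCGC (an E2F-like word). RIF1 (chr2:151409652-151409951, plus strand), POLQ (chr3:121545939-121546238, minus strand) and PARP3 (chr3:51942113-51942412, plus strand) are printed 5′ to 3′ with the matches in capitals.
RIF1: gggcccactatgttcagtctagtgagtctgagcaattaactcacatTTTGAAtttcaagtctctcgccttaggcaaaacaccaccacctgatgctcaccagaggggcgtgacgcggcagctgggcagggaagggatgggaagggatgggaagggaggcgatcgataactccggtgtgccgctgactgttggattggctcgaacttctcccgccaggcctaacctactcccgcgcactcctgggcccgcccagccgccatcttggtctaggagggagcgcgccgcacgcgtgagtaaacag
POLQ: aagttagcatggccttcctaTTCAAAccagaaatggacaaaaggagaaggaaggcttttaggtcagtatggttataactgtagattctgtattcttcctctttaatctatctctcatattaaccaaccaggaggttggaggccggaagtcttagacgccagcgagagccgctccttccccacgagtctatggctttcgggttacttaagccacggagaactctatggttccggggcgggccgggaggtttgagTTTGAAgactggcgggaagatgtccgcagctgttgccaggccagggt
PARP3: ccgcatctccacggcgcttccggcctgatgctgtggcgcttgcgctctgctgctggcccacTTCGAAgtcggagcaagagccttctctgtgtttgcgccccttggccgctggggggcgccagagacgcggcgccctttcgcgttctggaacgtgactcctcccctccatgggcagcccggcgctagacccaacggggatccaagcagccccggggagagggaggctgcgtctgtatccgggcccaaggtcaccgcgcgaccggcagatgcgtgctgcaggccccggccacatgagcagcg
RIF1 has TTTGAA at -204, and POLQ has TTTGAA at 4 and its reverse complement at -230, counted from the first transcribed base as 1. PARP3 has TTCGAA, which reads the same on both strands, at -189. Of 35116 promoters of this length, 15.16% hold TTTGAA, 1.447% TTCGAA and 6.886% TTTNNCGC, so the first word is common. PARP2 holds TTCGAA at -3, PARG holds TTTGTCGC at -197 and SLFN11 TTTAACGC at -125. The windows of PARP1, TP53BP1 and MAD2L2 (2 windows) hold none of these letters, which says nothing about binding.

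PARP3, which adds single ADP-ribose units at double-strand breaks, fell in 2 lines. It lies on chromosome 3, plus strand, from 51942345 to 51948867. PATU8988T had 9.22, 9.19 and 10.0 FPKM in the controls and 6.07, 6.34 and 5.55 FPKM after knockdown. The highest knockdown library was well below the lowest control. The log2 fold change was -0.65 (SE 0.0652, adjusted p = 7.93e-05, limma), and 3.49% of the genes tested in PATU8988T changed by more in either direction. The call held in all 15 alternatives.

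In PANC1, PARP3 was at 13.5, 14.0 and 13.5 FPKM in the controls and at 11.1, 11.4 and 11.5 FPKM after knockdown, again without overlap. The change was smaller, -0.26 (SE 0.0434, adjusted p = 0.000347, limma), and it was lost only when all 18 libraries shared one estimate of the spread (adjusted p = 0.0630). MIA PaCa-2 controls had 11.04, 15.8 and 10.6 FPKM and the knockdown libraries 9.65, 11.3 and 10.9 FPKM. There the second control was the highest of the 6 libraries and the others overlapped, with a log2 fold change of -0.21 (adjusted p = 0.355) and, without it, of -0.03 (95% interval -0.18 to 0.13, adjusted p = 0.723). The effect in PATU8988T was stronger than in MIA PaCa-2 by -0.44 (adjusted p = 0.0293), while its difference from PANC1 did not pass (0.39, adjusted p = 0.0700, 95% interval 0.05 to 0.73 for PANC1 minus PATU8988T before adjustment). The first of these was lost in 6 of 18 fits that left out 1 library. Without MIA PaCa-2 control replicate 2, both passed, at -0.63 (adjusted p = 5.45e-06) and 0.39 (adjusted p = 0.000620), as did PANC1 minus MIA PaCa-2 (-0.23, adjusted p = 0.0293, against -0.05 and 0.819 with it).

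PARP1, the main target of PARP inhibitors, was the most abundant of the 9 genes in every group. It lies on the minus strand of chromosome 1 from 226360691 to 226408079. In MIA PaCa-2, the controls had 97.8, 105 and 103 FPKM and the knockdown libraries 89.0, 85.7 and 87.3 FPKM. The groups did not overlap, and the mean fell by 14.2% (log2 fold change -0.22, SE 0.0614, adjusted p = 0.0293, limma). This call was lost in 7 of 15 alternatives, among them every fit that left out 1 library other than control replicate 2 (adjusted p from 0.0502 to 0.130). Without control replicate 2 it was -0.20 (adjusted p = 0.000286). In PATU8988T, it rose from 83.0, 84.2 and 84.1 FPKM to 90.7, 91.7 and 93.0 FPKM, by 9.64% (log2 fold change 0.13, SE 0.0321, adjusted p = 0.00991). All knockdown libraries there were above all controls, and the call was lost in the fit without knockdown replicate 3 (0.12, adjusted p = 0.0501).

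PANC1 had 64.7, 64.1 and 64.4 FPKM of PARP1 in the controls and 62.3, 62.3 and 63.6 FPKM after knockdown. The log2 fold change was -0.04 (95% interval -0.09 to 0.02, adjusted p = 0.206), and -0.09 (adjusted p = 0.0101) when libraries were rescaled by their median ratio. The 3 effects on PARP1 differed from each other: PANC1 minus MIA PaCa-2 was 0.18 (adjusted p = 0.00727), PATU8988T minus MIA PaCa-2 was 0.35 (adjusted p = 2.12e-05) and PANC1 minus PATU8988T was -0.17 (adjusted p = 0.0131, interaction terms in limma). The first was 0.08 (adjusted p = 0.220) with median-ratio rescaling. Such differences passed for 43.4%, 52.9% and 35.8% of the 9083 genes compared in these 3 pairs.

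PARP2, the close relative of PARP1, fell in MIA PaCa-2 only among the 3 lines. The gene is on chromosome 14, plus strand, from 20343582 to 20357905, and shares 104 and 26 exon bases with 2 antisense genes. MIA PaCa-2 controls had 25.8, 24.1 and 24.9 FPKM and the knockdown libraries 20.9, 19.97 and 20.06 FPKM. These did not overlap, and the mean fell by 18.6% (log2 fold change -0.29, SE 0.0736, adjusted p = 0.0195, limma). The call was lost without any single library other than control replicate 2 (adjusted p from 0.0582 to 0.0973), and the value was -0.32 (adjusted p = 6.89e-05) without control replicate 2. In PANC1, PARP2 went from 11.8, 12.4 and 12.5 FPKM to 13.8, 10.8 and 14.1 FPKM, with replicate 2 of the knockdown below all controls and the others above them. The value was 0.06 (adjusted p = 0.538) and, without that library, 0.19 (adjusted p = 0.00982). PATU8988T had 15.1, 13.3 and 12.3 FPKM in the controls and 14.2, 14.3 and 12.9 FPKM after knockdown, which overlapped (0.03, 95% interval -0.14 to 0.20, adjusted p = 0.774). The MIA PaCa-2 effect differed from that in PANC1 by 0.36 (PANC1 minus MIA PaCa-2, adjusted p = 0.0333) and from that in PATU8988T by 0.32 (adjusted p = 0.0435). Of 25 alternatives, the former passed in 17 and the latter in 11, and median-ratio rescaling lost both (0.26, adjusted p = 0.117, and 0.24, adjusted p = 0.124).

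PARG, the main enzyme that breaks down ADP-ribose chains, rose by similar amounts in PANC1 and PATU8988T. It lies on the minus strand of chromosome 10 from 49818279 to 49970203. PANC1 had 9.77, 10.2 and 9.45 FPKM in the controls and 11.4, 11.2 and 11.2 FPKM after knockdown (0.20, SE 0.0481, adjusted p = 0.00382, limma). PATU8988T had 8.18, 7.60 and 6.87 FPKM in the controls and 8.41, 8.95 and 8.75 FPKM after knockdown (0.21, SE 0.0683, adjusted p = 0.0381). Neither pair of groups overlapped. The PANC1 call was lost in the fit of all 18 libraries (adjusted p = 0.0704, limma). The PATU8988T call was lost in 9 of 15 alternatives. Among them were the fits without control replicate 2 (0.21, adjusted p = 0.0878), control replicate 3 (0.14, 0.134), knockdown replicate 2 (0.19, 0.0731) and knockdown replicate 3 (0.20, 0.0962).

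MIA PaCa-2 had 12.9, 10.1 and 13.4 FPKM of PARG in the controls and 10.2, 9.79 and 9.85 FPKM after knockdown. The second control lay among the knockdown libraries and the other controls above them, with a log2 fold change of -0.28 (adjusted p = 0.125) with it and -0.40 (SE 0.0419, adjusted p = 3.80e-05) without it. The opposite direction of MIA PaCa-2 was a difference past the test, 0.47 for PANC1 minus MIA PaCa-2 (adjusted p = 0.00676) and 0.48 for PATU8988T minus MIA PaCa-2 (adjusted p = 0.00461), in all 25 alternatives of each. PARG has partial copies on the same chromosome, and its reads may be shared with them. It also shares 37 exon bases with TIMM23B, which rose in PANC1 (0.33, adjusted p = 0.00202) and in MIA PaCa-2 (0.77, adjusted p = 0.00474), the latter while PARG did not. The part of these reads was not tested.

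TP53BP1, the chromatin reader at the head of the end-protection pathway, rose slightly in 2 lines. It lies on chromosome 15, minus strand, from 43403061 to 43510728. MIA PaCa-2 went from 7.21, 6.60 and 7.81 FPKM to 9.25, 8.93 and 9.21 FPKM, a log2 fold change of 0.34 (SE 0.0967, adjusted p = 0.0312, limma). The value was 0.28 (adjusted p = 0.00112) without control replicate 2, and the call was lost without control replicate 1 or any knockdown library (0.0777 to 0.122). PANC1 went from 26.9, 27.0 and 27.4 FPKM to 29.3, 28.8 and 29.5 FPKM (0.11, SE 0.0323, adjusted p = 0.0121). This call was lost when libraries were rescaled by their median ratio (0.06, adjusted p = 0.140) and in the fit of all 18 libraries (adjusted p = 0.116). In both lines, every knockdown library was above every control. PATU8988T had 7.29, 7.11 and 7.48 FPKM in the controls and 7.09, 6.85 and 7.21 FPKM after knockdown, which overlapped (-0.05, 95% interval -0.17 to 0.07, adjusted p = 0.488). The MIA PaCa-2 effect exceeded that in PATU8988T by 0.39 (-0.39 for PATU8988T minus MIA PaCa-2, adjusted p = 0.000857) and that in PANC1 by 0.23 (-0.23 for PANC1 minus MIA PaCa-2, adjusted p = 0.0308). The former passed in all 25 alternatives and the latter in 18.

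TP53BP1 shares 3732 exon bases with TUBGCP4 on the other strand, and the sources used here do not say whether strand was used in counting, so reads of the 2 genes may be mixed. TUBGCP4, a subunit of the microtubule-nucleating gamma-tubulin complex, fell in MIA PaCa-2 (-1.30, adjusted p = 0.000281) and PANC1 (-0.34, adjusted p = 0.000504), the same lines in which TP53BP1 rose. In PATU8988T its value was 0.13 (adjusted p = 0.0792). RIF1 shares 166 exon bases with NEB, which averaged at most 0.0135 FPKM in every group.

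MAD2L2, also called REV7, is a subunit of shieldin and of polymerase zeta. It lies on the minus strand of chromosome 1 from 11674480 to 11691650. In PANC1, the controls had 50.9, 47.0 and 46.3 FPKM and the knockdown libraries 44.8, 43.8 and 43.4 FPKM. The groups did not overlap, and the mean fell by 8.49% (log2 fold change -0.13, SE 0.0390, adjusted p = 0.0142, limma). This call was lost in the fit of all 18 libraries (adjusted p = 0.104). MIA PaCa-2 went from 32.9, 39.2 and 33.4 FPKM to 34.7, 36.6 and 36.2 FPKM, with the second control the highest library (0.03, adjusted p = 0.796, and 0.11, adjusted p = 0.0120, without it). PATU8988T had 15.3, 15.2 and 16.6 FPKM in the controls and 15.9, 14.8 and 15.4 FPKM after knockdown (-0.03, 95% interval -0.15 to 0.08, adjusted p = 0.639). None of the 3 differences between lines passed the test with all libraries. Without MIA PaCa-2 control replicate 2, PANC1 minus MIA PaCa-2 was -0.24 (adjusted p = 0.00318) and PATU8988T minus MIA PaCa-2 was -0.15 (adjusted p = 0.0486), against -0.16 and -0.07 with it. Median-ratio rescaling gave -0.26 for the first (adjusted p = 0.0372).

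SLFN11 was low in PANC1 and at or near 0 in the other lines. It lies on chromosome 17, minus strand, from 35350305 to 35373701. PANC1 had 0.246, 0.302 and 0.263 FPKM in the controls and 0.320, 0.294 and 0.224 FPKM after knockdown, which rest on 40 to 58 reads per library. The groups overlapped, and a fit without the filter on low values gave a log2 fold change of 0.03 (adjusted p = 0.888, limma). PATU8988T had 0 to 3 reads per library, at most 0.0156 FPKM. SLFN11 was listed at 0 in all 6 MIA PaCa-2 libraries, and no fold change is given there. The other 8 genes rested on at least 555 reads in every library.

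Within a line, where FPKM values share one set of gene lengths, the controls ran in the order PARP1, MAD2L2, TP53BP1, PARP3, RIF1, PARP2, PARG, POLQ and SLFN11 in PANC1, with means from 64.4 to 0.270 FPKM and no overlap between neighbours. In MIA PaCa-2 the order was PARP1, MAD2L2, PARP2, PARP3, PARG, TP53BP1, RIF1, POLQ and SLFN11, where PARP3 overlapped PARG, TP53BP1 overlapped RIF1 and RIF1 overlapped POLQ. PATU8988T had the same order as MIA PaCa-2, and there PARG overlapped TP53BP1 and RIF1 overlapped POLQ. PARP1 had 102 ± 3.54 FPKM in MIA PaCa-2 controls and POLQ 4.96 ± 1.20 FPKM (SD, n = 3 each). The gene length behind the FPKM was the same in all 3 lines for PARP1 (3978 bases), PARG (4405), TP53BP1 (11555) and POLQ (8757), and differed in PANC1 for PARP2, PARP3, RIF1 (9965 against 7521) and MAD2L2 (1200 against 2205). Levels of the latter 4 are therefore not compared with those of PANC1.

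The library that stood apart bore on the 8 genes in MIA PaCa-2 to different degrees. Over 10233 genes, the deviation of control replicate 2 from the mean of controls 1 and 3 had a Spearman correlation of 0.881 with transcript GC content. RIF1, with the lowest GC content of the 8 (37.3%), deviated by -1.19 on the log2 scale, POLQ (41.1%) by -0.65 and PARG (43.0%) by -0.39. PARP3 (57.1%) deviated by 0.55 and MAD2L2 (63.4%) by 0.24. Smaller deviations were those of TP53BP1 (-0.18), PARP2 (-0.07) and PARP1 (0.06). These genes were called with and without the library, at a lower adjusted p without it. Without this library, 4 of 8 genes were called lower (PARP1, PARP2, PARG and RIF1) and 2 higher (TP53BP1 and MAD2L2), where 39.8% of all genes tested were called lower, 35.4% higher and 75.3% in either direction.

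**Figure D3:**
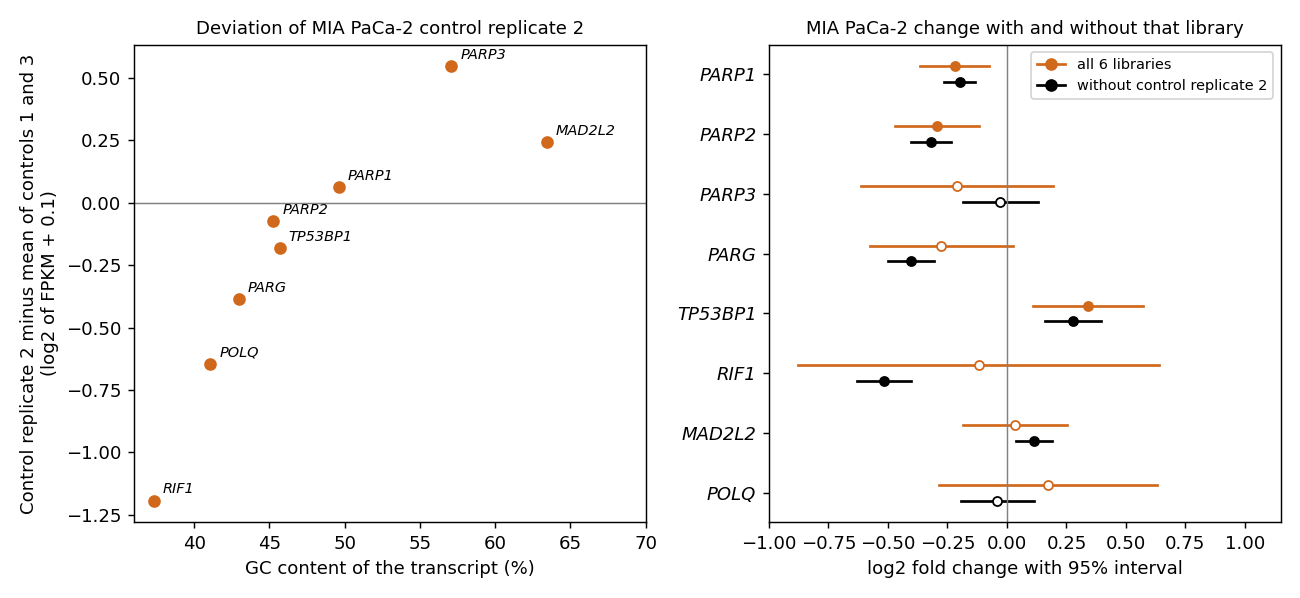
Left, the deviation of MIA PaCa-2 control replicate 2 from the mean of the other 2 controls (y axis, log2 of FPKM + 0.1) against transcript GC content (x axis, %) for the 8 genes tested, from -1.19 for RIF1 to 0.55 for PARP3. Right, the log2 fold change of each gene with its 95% interval for all 6 libraries (orange) and without that control (black), filled where the adjusted p was below 0.05, which moves RIF1 from -0.12 to -0.52.

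A wider set of 85 genes in 6 lists set the 9 genes in their pathways. Of these, 29 fell and 26 rose of 79 tested in PANC1, 21 and 15 of 73 in MIA PaCa-2, and 11 and 19 of 74 in PATU8988T, with medians of 0.0049, 0.0013 and 0.05. Without MIA PaCa-2 control replicate 2, 33 fell and 26 rose there. Pooled over the 6 lists, these shares lie near those of all genes, which does not hold for each list alone. Over all genes, 32.2% were called lower and 40.1% higher in PANC1. The shares were 21.7% and 18.7% in MIA PaCa-2 (39.8% and 35.4% without control replicate 2) and 18.5% and 20.9% in PATU8988T. They are the background for the counts of each list below.

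Among the genes that act with TP53BP1, RIF1 and MAD2L2, 9 of 16 fell and 3 rose in PANC1, with a median of -0.20. Over all genes there, 32.2% were called lower and 40.1% higher. KMT5A, a histone H4 lysine methyltransferase, went from 17.9 ± 0.580 to 4.18 ± 0.307 FPKM (SD, n = 3 each, log2 fold change -2.07, adjusted p = 2.00e-09, limma). SHLD2, the single-strand binding subunit of shieldin, went from 10.4 ± 0.452 to 3.71 ± 0.0567 FPKM (-1.46, adjusted p = 1.19e-08). SHLD2 fell likewise in MIA PaCa-2, from 8.21 ± 1.90 to 3.03 ± 0.0496 FPKM (-1.38, adjusted p = 0.00182), and so did KMT5A (-1.21, adjusted p = 0.000181). Both genes have processed or duplicated copies elsewhere in the genome, so reads may be shared with these. In PATU8988T, neither was called (KMT5A -0.04, adjusted p = 0.635, and SHLD2 -0.10, adjusted p = 0.201).

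In MIA PaCa-2, 9 of 14 genes of this list fell and 3 rose, with a median of -0.51. The counts were also 9 and 3 without control replicate 2. Over all genes in that line, 21.7% were called lower and 18.7% higher, or 39.8% and 35.4% without that control. PAXIP1, a partner of TP53BP1 in end protection, was lower in all 3 lines (-0.68, -1.01 and -0.40, adjusted p = 1.44e-05, 0.000677 and 0.000661 in PANC1, MIA PaCa-2 and PATU8988T). PATU8988T had 4 of 14 lower and 3 higher. SHLD3, the shieldin subunit that binds MAD2L2, was there at 1.37 ± 0.0518 FPKM in the controls and 2.30 ± 0.370 FPKM after knockdown (0.70, adjusted p = 0.00185). SHLD3 also rose in PANC1 (0.81, adjusted p = 0.000878) and had a value of 0.0013 in MIA PaCa-2 (adjusted p = 0.997), and of -0.24 (adjusted p = 0.0616) without control replicate 2.

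Of 12 other ADP-ribosyltransferases tested, 5 were higher and 3 lower in PANC1, near the 40.1% and 32.2% over all genes. MIA PaCa-2 had 5 higher and 0 lower of 12, beside 18.7% and 21.7% over all genes. In MIA PaCa-2, where limma called 0 lower, 0 were also lower at an unadjusted p under 0.05 and by voom, while 7 were higher and 2 lower without control replicate 2. TIPARP, a target of the aryl hydrocarbon receptor, rose in PANC1 (0.93, adjusted p = 4.80e-06), MIA PaCa-2 (0.75, adjusted p = 0.0192) and PATU8988T (0.23, adjusted p = 0.0174). PARP16, an endoplasmic reticulum enzyme, rose in PANC1 (0.73, adjusted p = 1.37e-05) and MIA PaCa-2 (0.79, adjusted p = 0.00213), as did the tankyrase TNKS2 (0.60, adjusted p = 1.13e-06, and 0.90, adjusted p = 0.00912). In PATU8988T, 1 of 12 rose and 2 fell, one of them PARP8 (-0.31, adjusted p = 0.00626).

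Of the cofactor, readers and erasers of ADP-ribose, 2 fell and 4 rose of 9 in PANC1, 1 fell and 3 rose of 8 in MIA PaCa-2, and 1 fell and 1 rose of 8 in PATU8988T. Without MIA PaCa-2 control replicate 2, 1 fell and 4 rose of 9 there. ADPRM rose from 2.09 ± 0.417 to 4.11 ± 0.190 FPKM in PANC1 (SD, n = 3 each, 0.96, adjusted p = 6.79e-05), and the Nudix hydrolase NUDT16 rose as well (0.48, adjusted p = 2.53e-05). In MIA PaCa-2 the largest were the ADP-ribose hydrolase OARD1 (0.48, adjusted p = 0.0116) and the remodeller CHD1L (0.47, adjusted p = 0.00469). In PATU8988T they were MACROD1 (-0.18, adjusted p = 0.0269) and DTX3L (0.17, adjusted p = 0.0425).

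Among 13 genes of single-strand break repair and alternative end joining, where POLQ acts, 6 fell and 3 rose in PANC1, 4 fell and 0 rose in MIA PaCa-2, and 2 fell and 5 rose in PATU8988T. The 0 in MIA PaCa-2 is by limma, and 1 rose at an unadjusted p under 0.05 and 0 by voom. Without MIA PaCa-2 control replicate 2, 8 fell and 2 rose there. The replication ligase LIG1 fell from 12.6 ± 0.565 to 5.28 ± 0.235 FPKM in PANC1 (SD, n = 3 each, -1.24, adjusted p = 3.47e-08), and the flap nuclease FEN1 fell by 0.73 (adjusted p = 1.01e-06). In MIA PaCa-2, FEN1 fell by 0.98 and LIG1 by 0.54 on the log2 scale (adjusted p = 0.000956 and 0.0438), and by 0.86 and 0.34 without control replicate 2 (adjusted p = 7.16e-08 and 4.38e-05). Both are S phase genes in function, and the S phase list moved with them as given above. In PATU8988T the largest were RBBP8, which starts end resection, at 67.3 ± 4.09 and 86.7 ± 5.25 FPKM (0.37, adjusted p = 0.00102), and RAD50 (-0.25, adjusted p = 0.0119).

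Of 11 genes of classical non-homologous end joining, 3 fell and 5 rose in PANC1, 3 fell and 2 rose in MIA PaCa-2, and 1 fell and 3 rose in PATU8988T. In MIA PaCa-2, 5 fell and 5 rose without control replicate 2. The gap-filling polymerase POLL rose in PANC1 (0.48, adjusted p = 5.13e-05) and MIA PaCa-2 (0.73, adjusted p = 0.00955) and fell in PATU8988T (-0.21, adjusted p = 0.0317). XRCC6, the Ku70 subunit, fell in PANC1 from 277 ± 7.52 to 207 ± 4.72 FPKM (SD, n = 3 each, -0.42, adjusted p = 2.60e-07). NHEJ1 fell in MIA PaCa-2 (-0.59, adjusted p = 0.00857), and XRCC4 rose in PATU8988T (0.21, adjusted p = 0.0486).

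Of the remaining modifiers of PARP inhibitor response, 6 fell and 6 rose of 18 in PANC1, 4 fell and 2 rose of 15 in MIA PaCa-2, and 1 fell and 6 rose of 16 in PATU8988T. In MIA PaCa-2, 8 fell and 5 rose of 15 without control replicate 2. RNASEH2A, whose loss leaves ribonucleotides in DNA, fell in PANC1 from 37.6 ± 1.66 to 18.9 ± 0.917 FPKM (SD, n = 3 each, -0.99, adjusted p = 3.97e-08), and the nucleotide hydrolase SAMHD1 fell by 0.91 (adjusted p = 4.76e-06). SLFN5, a relative of SLFN11, rose in MIA PaCa-2 from 1.60 ± 0.289 to 6.11 ± 0.0888 FPKM (1.89, adjusted p = 0.000315), the largest change of the 85 genes in that line. Among 15 interferon-stimulated genes tested there, 4 fell and 4 rose, with a median of 0.19, or 5 and 7 without control replicate 2, and their part in the SLFN5 result was not tested. WEE1, a checkpoint kinase, rose in MIA PaCa-2 (0.77, adjusted p = 0.001999). In PATU8988T the largest were EME1 (-0.33, adjusted p = 0.00221) and SLFN12 (0.32, adjusted p = 0.00321).

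**Figure D4:**
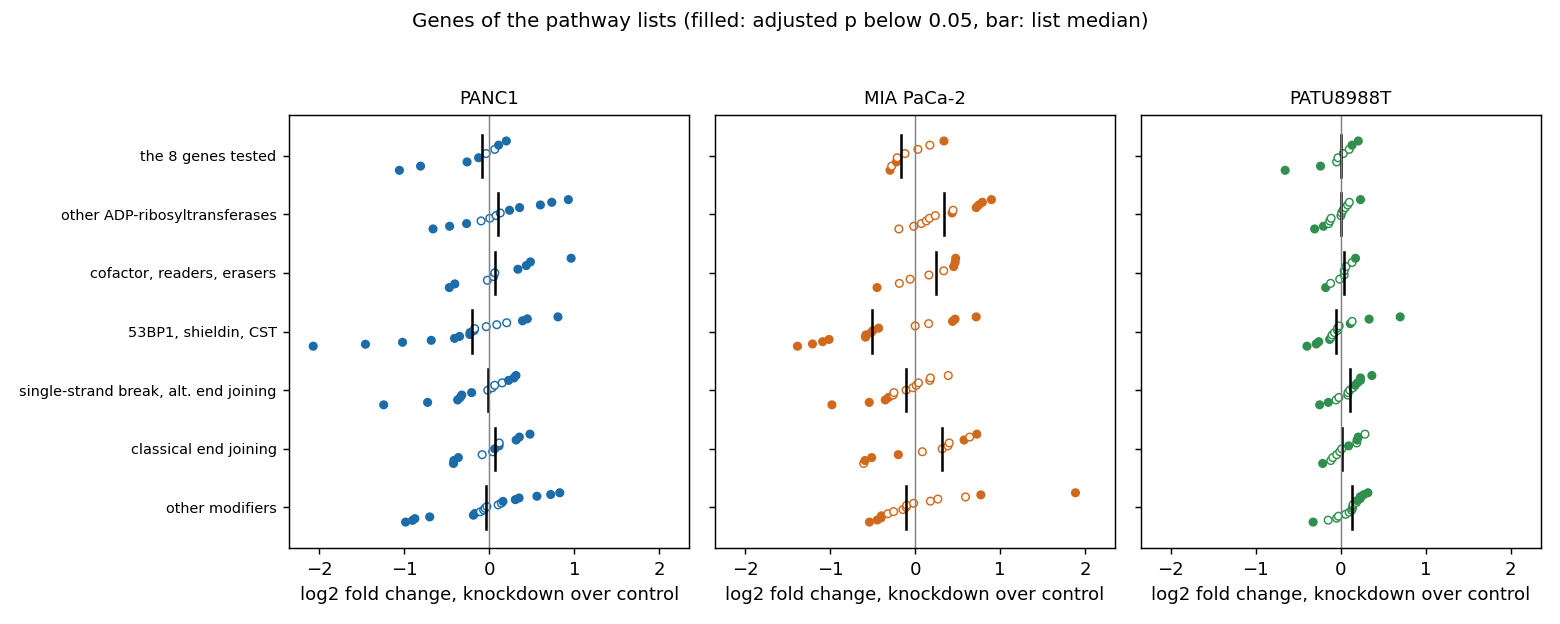
Log2 fold change (x axis, knockdown over control) of every tested gene of the 8 genes and the 6 pathway lists in each line, filled where the adjusted p was below 0.05, with the list median as a bar. The TP53BP1 and shieldin list has its median at -0.51 in MIA PaCa-2, against -0.20 in PANC1 and -0.06 in PATU8988T.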

How the data were processed

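RNA-seq libraries of 3 cell lines were analysed, 3 control and 3 OFD1 knockdown libraries per line. According to the methods of the study, reads were mapped with HISAT2, counted with HTSeq-count. The role of the builds named in the submitters' processing notes (hg38, GRCm38 and mm10), the annotation and the use of strand are not given in the sources used here. The authors deposited FPKM values, already scaled by library and gene length. Every value of a gene above 0 came out as a whole number of reads within 0.0001 of a whole number, for 100% of genes in each line.

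Genes with a mean of at least 1 FPKM in a line were tested on log2(FPKM + 0.1) with limma 3.58.1 (lmFit, eBayes with a variance trend, R 4.3.3), two-sided, with Benjamini-Hochberg adjustment over all genes tested. Differences between lines were interaction terms in one fit of 18 libraries over 9083 genes. SDs are of FPKM, and SEs are moderated. The fit was tested on simulated data. The 9 genes and all lists were chosen with earlier results of these data known. The rule for named genes took the 9 genes, OFD1, the 2 largest changes called per list and line, and the 3 genes most like each of the 8 tested. After their values were seen, TUBGCP4, TIMM23B and NEB were named for shared exons. KMT5A, SHLD2, SHLD3, TIPARP, TNKS2 and PAXIP1 were named in lines beyond those of the rule, also after their values were seen. So were PCNA, RRM2, the keratins, EPCAM, CDH1, COL1A2, CD68, DCN, LUM and CD3E, as list examples. Gene positions came from GENCODE on GRCh38 and promoters from RefSeq on GRCh38.p14.

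Alternatives were pseudocounts of 1 and 0.01, no filter, a mean of at least 5 FPKM, median-ratio centring, no variance trend, one fit of all 18 libraries, the replicate number as a block, each library left out, and limma voom on the recovered reads (at least 10 reads in 3 libraries), the last added after the data were seen. Same-numbered control and knockdown libraries had correlations of deviations from -0.11 to 0.13, so the numbers were not taken to pair them.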

Additional observations from a re-analysis of the deposited data

Results flagged for a closer look

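Among the 8 genes tested, 14 differences of the knockdown effect between 2 lines passed an adjusted p of 0.05 in a test of the difference itself (interaction terms in limma, 24 tests of these genes). In the 3 pairs, 43.4%, 52.9% and 35.8% of all 9083 genes passed.

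For PANC1 minus MIA PaCa-2, the differences on the log2 scale were 0.18 for PARP1 (adjusted p = 0.00727), 0.36 for PARP2 (0.0333), 0.47 for PARG (0.00676), -0.23 for TP53BP1 (0.0308), -0.94 for RIF1 (0.0197) and -0.98 for POLQ (0.000853), by limma. For PATU8988T minus MIA PaCa-2, they were 0.35 for PARP1 (adjusted p = 2.12e-05), 0.32 for PARP2 (0.0435), -0.44 for PARP3 (0.0293), 0.48 for PARG (0.00461) and -0.39 for TP53BP1 (0.000857). For PANC1 minus PATU8988T, they were -0.17 for PARP1 (adjusted p = 0.0131), -0.82 for RIF1 (0.0449) and -0.91 for POLQ (0.00184). Pairs of lines share samples, so these values are not independent of each other.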

How the results depend on the processing

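In PANC1, the falls of RIF1 and POLQ, and in PATU8988T the fall of PARP3, kept direction and call in every alternative run. Over 359 alternative values of the 8 genes' changes, 303 kept direction and side of the threshold, 41 lost and 7 gained the call, and 8 reversed. For 597 values of the differences between lines, these numbers were 525, 53, 7 and 12. All reversals came from leaving out 1 library and are covered by the ranges that follow. The causes of these moves were not tested.

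With 1 library left out, the log2 changes ranged from -0.0052 to 0.19 for PARP2 in PANC1, -0.52 to 0.090 for RIF1, -0.013 to 0.11 for MAD2L2 and -0.041 to 0.29 for POLQ in MIA PaCa-2, and -0.035 to 0.11 for PARP2 and -0.057 to 0.0084 for MAD2L2 in PATU8988T. The differences ranged from -0.044 to 0.16 for PARP2 and -0.066 to 0.059 for PARG (PANC1 minus PATU8988T), -0.23 to 0.054 for PARP3 (PANC1 minus MIA PaCa-2), and -0.33 to 0.28 for RIF1 and -0.19 to 0.14 for POLQ (PATU8988T minus MIA PaCa-2). Without MIA PaCa-2 control replicate 2, the RIF1 difference was 0.28 (adjusted p = 0.0187, limma) and the POLQ difference 0.14.

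Leaving out 1 library gave, for the 8 genes, 4 lower and 2 to 3 higher in PANC1, 0 to 4 lower and 0 to 2 higher in MIA PaCa-2 and 1 to 2 lower and 0 to 2 higher in PATU8988T. Of the pathway genes, it gave 9 to 33 lower and 8 to 26 higher in MIA PaCa-2 and 5 to 10 lower and 10 to 22 higher in PATU8988T. Over all genes, it gave 1319 to 4287 lower and 1101 to 3811 higher in MIA PaCa-2, where the upper ends are without control replicate 2, and 1461 to 2494 higher in PATU8988T.

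Of the 8 genes, the number lower and higher was 4 and 2 for PANC1, 2 and 1 for MIA PaCa-2 and 2 and 2 for PATU8988T. One fit of all 18 libraries gave 2 lower and 0 higher in PANC1 (3 and 1 at an unadjusted p under 0.05) and 1 and 1 in PATU8988T. In PATU8988T, no filter and no variance trend each gave 1 lower and 1 higher, and median-ratio centring gave 1 higher, as it did in PANC1. No variance trend gave 1 lower in MIA PaCa-2. With the replicate number as a block, 0 lower and 0 higher were called in MIA PaCa-2 by limma (1 and 1 at an unadjusted p under 0.05) and 1 and 1 in PATU8988T. It lost the call of PARP1, PARP2 and TP53BP1 in MIA PaCa-2 (adjusted p = 0.116, 0.0803 and 0.0862), of PARG and RIF1 in PATU8988T (0.0527 and 0.0579) and, for the differences, of PARP1 and RIF1 for PANC1 minus PATU8988T (0.0681 and 0.0528) and of TP53BP1 for PANC1 minus MIA PaCa-2 (0.0604). The block moved no other count of these genes or of the pathway genes by over 1.5 times. Of the pathway genes in PATU8988T, 11 lower and 19 higher became 7 and 11 with no filter and 4 and 6 in the fit of all libraries, and the 15 higher in MIA PaCa-2 became 23 in that fit.

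Over all genes, that fit gave 3047 higher against 2012 in MIA PaCa-2, and 1088 lower and 1011 higher against 1981 and 2235 in PATU8988T. A mean of at least 5 FPKM, which leaves fewer genes, gave 1204 higher in MIA PaCa-2 and 1240 lower in PATU8988T. Genes past 2-fold, lower and higher, numbered 528 and 191 for PANC1, 396 and 438 for MIA PaCa-2 and 90 and 17 for PATU8988T. A pseudocount of 1 gave 346 and 96 in PANC1, 23 and 11 in PATU8988T and 219 higher in MIA PaCa-2. With no filter there were 360 higher in PANC1, 772 higher in MIA PaCa-2, and 192 and 45 for PATU8988T. The 5 FPKM minimum, lines in the same order, gave 336 and 80, 177 higher, and 23 and 7. Voom on recovered reads, added after the data were seen, gave 821 and 544, 1034 higher, and 345 and 99. Depth limits SLFN11, with at most 58 reads in a library.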
